A study of Mus musculus with 8 samples.

Results

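The genes described here are 10 genes of antigen presentation by the major histocompatibility complex (MHC), out of 46603 genes in the count table. They were picked by name. H2-K1, H2-D1 and B2m encode MHC class I, H2-Aa, H2-Ab1, H2-Eb1 and Cd74 encode class II chains and their chaperone, Tap1 and Tap2 encode the peptide transporter, and Ciita encodes the class II coactivator. RNA was sequenced from 2 sorted populations of the liver of each of 4 mice. The liver label-retaining cells (LLRC) were EGFP+EpCAM+CD45- and the non-LRC cholangiocytes were EGFP-EpCAM+CD45-. All mice carried 1 copy each of R26rtTA and H2B-EGFP on a mixed C57BL/6 and CBA background, were given doxycycline over the first days of life, to postnatal day 5, and were sorted at 8 weeks of age. In this system the ubiquitous Rosa26 locus drives rtTA, doxycycline switches on the EGFP-tagged histone, and dividing cells dilute the label during the chase. The transgene is also active in blood cells without doxycycline.

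MHC class I is carried by nearly all nucleated cells. A heavy chain pairs with beta-2 microglobulin, and the transporter made of Tap1 and Tap2 moves proteasome-cut peptides into the endoplasmic reticulum, where tapasin helps to load them. MHC class II is made mainly by dendritic cells, macrophages and B cells, and its alpha and beta chains travel with the invariant chain Cd74 to endosomes, where peptides from outside the cell are loaded. Bile duct epithelium is known to display class I at rest and to acquire class II in inflamed ducts.

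The promoters of both classes share a module with an X2 box, a CRE-like site, and a Y box, an inverted CCAAT bound by NF-Y. Nlrc5 acts through this module at class I genes and Ciita acts through it at class II genes. RefSeq promoters of GRCm38.p6, from 250 bases before to 50 bases after the start, were matched for 6 of the 10 genes (H2-K1, H2-D1, B2m, H2-Aa, H2-Eb1 and Tap1). The 5 windows shown run from 100 bases before the Y box core to 10 bases after it, 115 bases in all, since they let the module be compared between the abundant class I genes and the scarce class II genes described below. Capitals mark TGACG, the X2 core, ATTGG, the Y box core, GGATTCCC, an NF-kB type site, and GAAANNGAAA, an interferon response core, each searched on both strands. In H2-Aa the X2 core overlaps its own reverse complement.
H2-K1, chr17:34000349-34000463, minus strand: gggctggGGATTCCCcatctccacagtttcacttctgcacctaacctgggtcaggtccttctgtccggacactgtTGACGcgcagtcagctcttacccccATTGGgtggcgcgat
H2-D1, chr17:35262918-35263032, plus strand: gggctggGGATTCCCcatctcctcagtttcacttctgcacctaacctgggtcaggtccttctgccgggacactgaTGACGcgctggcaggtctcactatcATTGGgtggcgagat
B2m, chr2:122147534-122147648, plus strand: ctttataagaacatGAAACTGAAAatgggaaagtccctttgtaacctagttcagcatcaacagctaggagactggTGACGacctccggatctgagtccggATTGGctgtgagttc
H2-Aa, chr17:34287857-34287971, minus strand: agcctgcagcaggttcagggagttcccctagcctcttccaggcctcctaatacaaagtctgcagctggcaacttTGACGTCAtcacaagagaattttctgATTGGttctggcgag
H2-Eb1, chr17:34305708-34305822, plus strand: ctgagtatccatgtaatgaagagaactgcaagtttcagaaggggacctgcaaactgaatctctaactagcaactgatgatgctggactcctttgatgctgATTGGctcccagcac

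From the first base of the X2 core to the first base of the Y box core there were 25 bases in H2-K1, H2-D1 and B2m and 26 in H2-Aa, whereas the X2 letters searched were not in the H2-Eb1 window. The pair at a spacing of 24 to 27 bases on one strand was held by 0.240% of the 32544 distinct promoters of the same length. ATTGG alone was held by 37.4%, TGACG by 20.9%, the interferon response core by 3.45% and the NF-kB type site by 1.03%. The H2-K1 and H2-D1 windows were identical at 89.6% of their positions and both held the NF-kB letters searched, whereas B2m held the interferon response letters searched. Variants of either site with other letters were not searched, so their absence from a window is not shown. Tap1 held TGACG 86 bases before its start and an ATTGG on the opposite strand, without the spaced pair. These matches describe the letters only, and the RNA values below do not measure binding.

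Total counts per library ran from 4670132 to 9851819, and in each mouse the non-LRC library had the lower total. Across libraries 3 counts corresponded to 0.291 to 0.626 CPM (counts per 1000000, on library sizes scaled by TMM). Epcam was read at 2421 to 6042 counts in every library, and Ptprc, which encodes CD45, at 5, 34, 14 and 59 counts in the LLRC libraries of mice JV602, JV621, JV624 and JV6314 and at 0, 0, 0 and 7 in the non-LRC libraries. Some libraries stood apart. Genes with at least 1 count numbered 14234 in the non-LRC library of JV621 and 16042 in that of JV6314, and 18356 to 20430 in the others. The Y-linked Ddx3y was read in all 8 libraries, at 112 counts in the non-LRC library of JV6314 and at 602 to 1302 counts in the others. Xist, with 0 counts elsewhere, reached 120 counts in LLRC of JV621. The 15 pancreatic acinar markers summed to 1886 CPM in the non-LRC library of JV6314 and to 2.25 to 23.2 CPM elsewhere. The summed level of 24 endothelial markers was 66.7 to 127 CPM in LLRC and 410.4 to 1939 CPM in non-LRC libraries, and 20 of the 21 that were tested had an unadjusted p below 0.05. Values that move with these libraries are also given without them for the members and for the list genes that stood apart.

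Class I transcripts were abundant in both populations and did not differ detectably between them. B2m, the light chain shared by all class I molecules, was read at 1311, 3374, 2055 and 2739 CPM in LLRC of JV602, JV621, JV624 and JV6314, and at 1479, 5149, 2268 and 2395 CPM in non-LRC cells of the same mice. The JV621 libraries were the highest and the JV602 libraries the lowest of each group, and the groups overlapped. The means were 2369 ± 888 CPM in LLRC and 2823 ± 1603 CPM in non-LRC (SD, n = 4). The fitted log2 fold change, LLRC over non-LRC, was -0.25 (95% interval -1.25 to 0.74). It was -0.46 without the LLRC library of JV621, in which Xist was read, and 0.22 without the non-LRC library of that mouse.

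H2-K1, a classical heavy chain, was read at 598, 1411, 579.6 and 795 CPM in LLRC of JV602, JV621, JV624 and JV6314 and at 596, 936, 596 and 841 CPM in non-LRC. Within a mouse both libraries were close except in JV621, where the LLRC library was higher by 0.59 on the log2 scale. The fitted log2 fold change was 0.19 (95% interval -0.60 to 0.97), which was the narrowest interval of the 8 members tested and corresponds to folds from 0.661 to 1.97. Without the LLRC library of JV621 the value turned to -0.16.

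H2-D1, the other classical heavy chain, was read at 205, 750.2, 241 and 193 CPM in LLRC of the same mice in that order and at 178, 616, 385 and 276 CPM in non-LRC. It was higher in LLRC in JV602 and JV621 and lower in JV624 and JV6314, so that the fitted log2 fold change of -0.07 (95% interval -1.29 to 1.15) summarises opposite within-mouse differences. Without the LLRC library of JV621 it was -0.76, without the non-LRC library of JV621 it turned to 0.32, and without both it was -0.39. None of these passed the test. H2-D1 and H2-K1 have near-identical relatives: 14.3% of the 50-base windows of the longest H2-D1 transcript and 8.11% of those of H2-K1 also occurred in transcripts of other genes, against 0 for B2m, so reads could be lost or exchanged there. When 16 rows of H2-K, H2-D, H2-Q and H2-T genes were summed, the log2 fold change was 0.01.

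**Figure D1:**
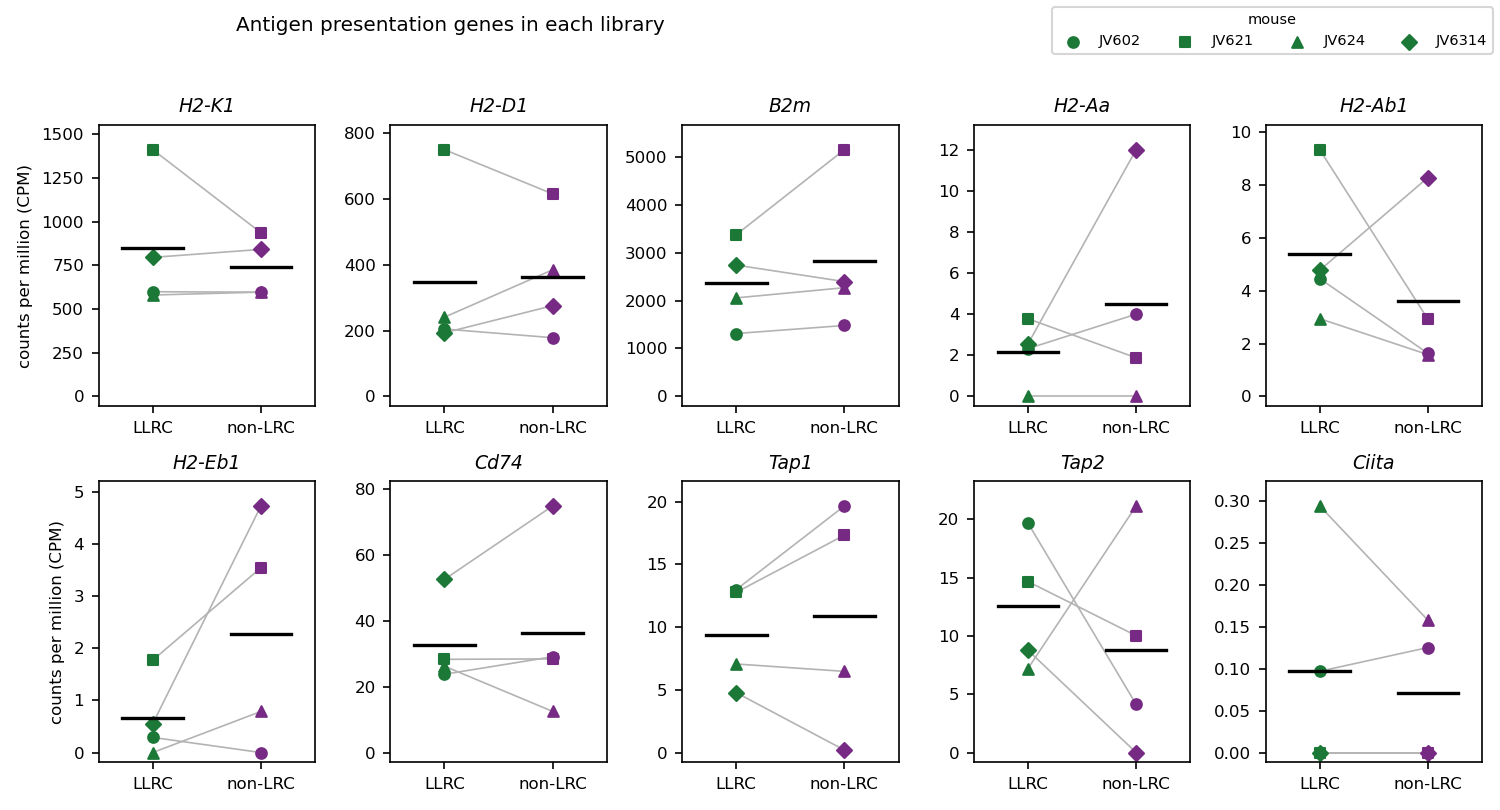
CPM (y axis, a separate linear scale for each gene) of the 10 genes in the LLRC (green) and non-LRC (purple) libraries. Symbols mark the mouse, grey lines join the libraries of a mouse and black bars are group means of 4. The groups overlap for all 10 genes, and the JV621 squares are highest in both groups for H2-K1, H2-D1 and B2m.

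The 3 class I chain genes were highest in mouse JV621 in both populations. Among all genes tested, 7.74% were highest in JV621 in both groups, and the shares for the other mice were 5.96% to 8.28%. The summed class I level was 5535 CPM in LLRC and 6701 CPM in non-LRC of JV621, and 2114 and 2253 CPM in those of JV602. The SD of log2 CPM over the 4 LLRC libraries was 0.59 for H2-K1, 0.92 for H2-D1 and 0.59 for B2m, beside a median of 0.46 over all genes tested, and over the 4 non-LRC libraries it was 0.34, 0.76 and 0.75 beside a median of 0.96.

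The peptide transporter was read at much lower levels. Tap1 was at 12.99, 12.8, 7.06 and 4.77 CPM in LLRC of JV602, JV621, JV624 and JV6314, and at 19.7, 17.3, 6.47 and 0.197 CPM in non-LRC, the last value resting on 1 count. Tap2 was at 19.7, 14.7, 7.21 and 8.77 CPM in LLRC and at 4.13, 10.02, 21.2 and 0 CPM in non-LRC, so both transporter genes were at or near 0 in the same library, the non-LRC library of JV6314. That library also held the acinar transcripts and had the lowest total count, with 16042 genes read. For each gene the 4 LLRC values lay inside the range of the non-LRC values. The fitted log2 fold changes were -0.22 for Tap1 (95% interval -2.32 to 1.89) and 0.51 for Tap2 (-1.88 to 2.90), and without that library they were -0.62 and 0.10. Without the non-LRC library of JV624 Tap2 was at 1.41, and with the mouse as replicate block it was at 1.47 and Tap1 turned to 0.46. None of these passed the test. Counting did not use strand, and 14.1% of the Tap2 exon bases overlap Gm15821 on the opposite strand, 3.87% of the Tap1 exon bases overlap Psmb9.

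Class II chain transcripts were scarce in both populations. H2-Ab1, the beta chain of I-A, was at 4.46, 9.34, 2.94 and 4.77 CPM in LLRC of JV602, JV621, JV624 and JV6314 and at 1.63, 2.92, 1.58 and 8.29 CPM in non-LRC. It was higher in LLRC in 3 of 4 mice, and its within-mouse log2 difference averaged 0.78 ± 1.099 (SD, n = 4), less than its spread between mice. The fitted log2 fold change was 0.58 (95% interval -0.99 to 2.15). Without the mouse JV6314 the 3 LLRC values lay above the 3 non-LRC values, which 5.78% of all genes tested also did, and the fitted value was 1.45. It was 1.40 without the non-LRC library of JV6314 alone and 0.19 without the LLRC library of JV621.

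H2-Aa, the alpha chain of I-A, had 24, 32, 0 and 23 counts in LLRC and 32, 9, 0 and 61 counts in non-LRC of the same mice in that order. Both libraries of JV624 thus had no count, where 3 counts correspond to 0.441 and 0.474 CPM, although its partner H2-Ab1 had 20 and 10 counts there. C57BL/6 and CBA carry different H-2 haplotypes and reads were mapped to 1 reference genome. Whether this lowered the counts of H2-Aa, H2-K1, H2-D1 or other H2 genes in some of the mice was not tested. The fitted log2 fold change of H2-Aa was -1.03 (95% interval -4.11 to 2.04), and without the non-LRC library of JV6314 it was 0.14. H2-Eb1, the beta chain of I-E, had 3, 15, 0 and 5 counts in LLRC and 0, 17, 5 and 24 counts in non-LRC and did not pass the expression filter. The annotated row for its alpha partner, H2-Ea-ps, was at 0 in all 8 libraries.

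Cd74, the invariant chain, exceeded the chains it accompanies. It was read at 23.7, 28.3, 26.2 and 52.5 CPM in LLRC of JV602, JV621, JV624 and JV6314 and at 29.1, 28.4, 12.5 and 74.8 CPM in non-LRC, highest in JV6314 in both groups. The means were 32.7 ± 13.4 and 36.2 ± 26.9 CPM (SD, n = 4) and the fitted log2 fold change was -0.15 (95% interval -1.37 to 1.08). Without the non-LRC library of JV6314, the highest of all, it turned to 0.49. Per kilobase of merged exon, Cd74 was 4.63 to 27.3 times as high as H2-Ab1 in the 8 libraries, with a median of 13.7. The ratio depends on the length used: merged exons were 2568 bases for H2-Ab1 and 1679 for Cd74, and their longest transcripts 1212 and 1410. In each population Cd74 was far above the chains.

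Ciita, the coactivator on which class II transcription depends, had 3 counts over the 4 LLRC libraries and 2 over the 4 non-LRC libraries, with at most 2 in any library. These are at or below the floor, so neither a fold nor an order is given. Nlrc5, its class I counterpart, was at 0.582, 1.54, 0.294 and 8.33 CPM in LLRC of JV602, JV621, JV624 and JV6314 and at 9.77, 0, 2.21 and 1.58 CPM in non-LRC. No mouse had a high Nlrc5 value in both libraries. In JV621, where the class I chains were highest, the values were 1.54 and 0 CPM, the 0 in the library with the fewest genes read.

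**Figure D2:**
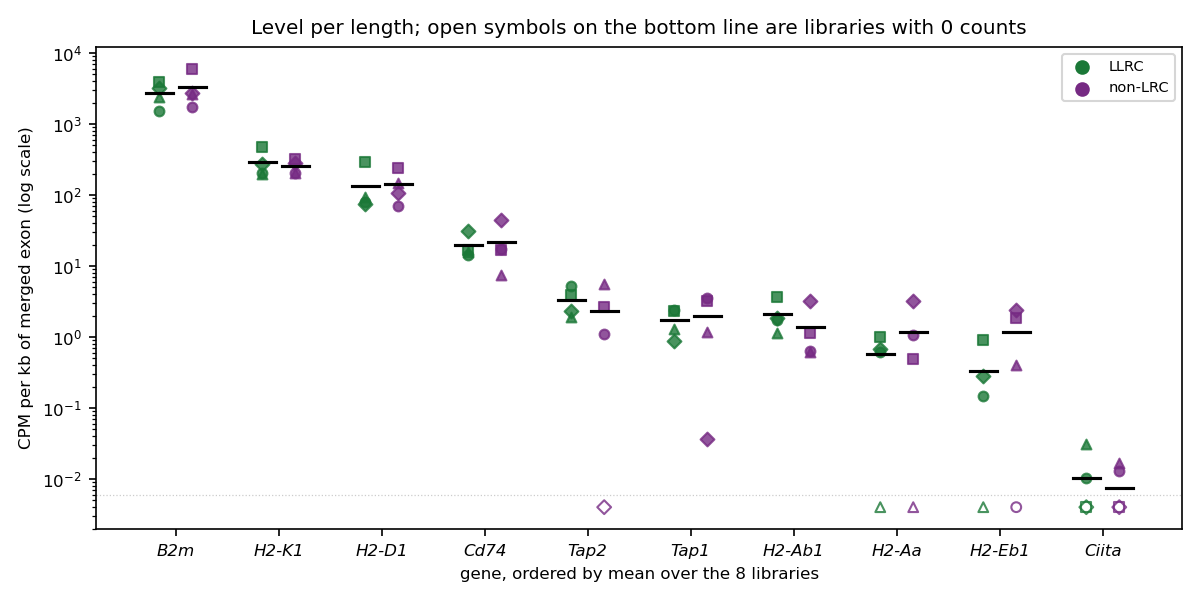
CPM per kilobase of merged exon (y axis, log scale) for the 10 genes, ordered by their mean over 8 libraries. Points are libraries, black bars group means of 4, and open symbols on the bottom line are libraries with 0 counts. B2m averages 3019, H2-K1 270.3, H2-D1 138 and Cd74 20.5, whereas the transporter and class II chain genes average below 3. Ciita, with 0 to 2 counts in a library, is at 0.00884.

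Set on a common scale of CPM per kilobase of merged exon, B2m had a mean of 3019 and ranked 14 from the top of the 13561 tested genes with a length, H2-K1 had a mean of 270.3 and rank 127, and H2-D1 had a mean of 138 and rank 298. B2m was 7.48 to 18.8 times as high as H2-K1, and H2-K1 was 1.33 to 3.61 times as high as H2-D1, in all 8 libraries. Cd74 followed at 20.5, with its highest library at 44.5 below the lowest H2-D1 library at 69.1. Tap2 at 2.83, Tap1 at 1.85, H2-Ab1 at 1.75, H2-Aa at 0.875 and H2-Eb1 at 0.752 had overlapping ranges over the libraries. Merged exons exceeded the longest transcript unevenly, with 2938 against 1874 bases for H2-K1, 5476 against 3911 for Tap1 and 860 for both in B2m. Ratios, ranks and the order of close genes therefore depend on the length used. The 2 classical heavy chains together were 44.5 to 345 times as high as the 3 class II chains, with means of 157 ± 65.2 in LLRC and 178 ± 124 in non-LRC (SD, n = 4).

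None of the members differed between LLRC and non-LRC cells by the test across genes. Of 13605 genes tested with edgeR's quasi-likelihood test, 0 had a Benjamini-Hochberg adjusted p below 0.05 (0% of genes) and 702 (5.16%) had an unadjusted p below 0.05. Other tools called up to 221 genes (DESeq2's Wald test), and no tool called a member. H2-Eb1 and Ciita did not pass the filter, and of the 8 members that did, 0 were called, 0 had an unadjusted p below 0.05, 3 had a positive and 5 a negative fold change. Their median log2 fold change was -0.11, beside -0.01 over all genes tested. The exact two-sided permutation p of single members, without pairing by mouse, ran from 0.286 for H2-Ab1 to 1 for Cd74, where 4 libraries against 4 allow no p below 0.029. The groups overlapped for all 10 members, whereas 2.15% of all genes tested had all 4 LLRC libraries above the highest non-LRC library and 1.91% had all 4 below the lowest. Fewer cells carrying a transcript and less RNA per cell cannot be told apart in these bulk samples.

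**Figure D3:**
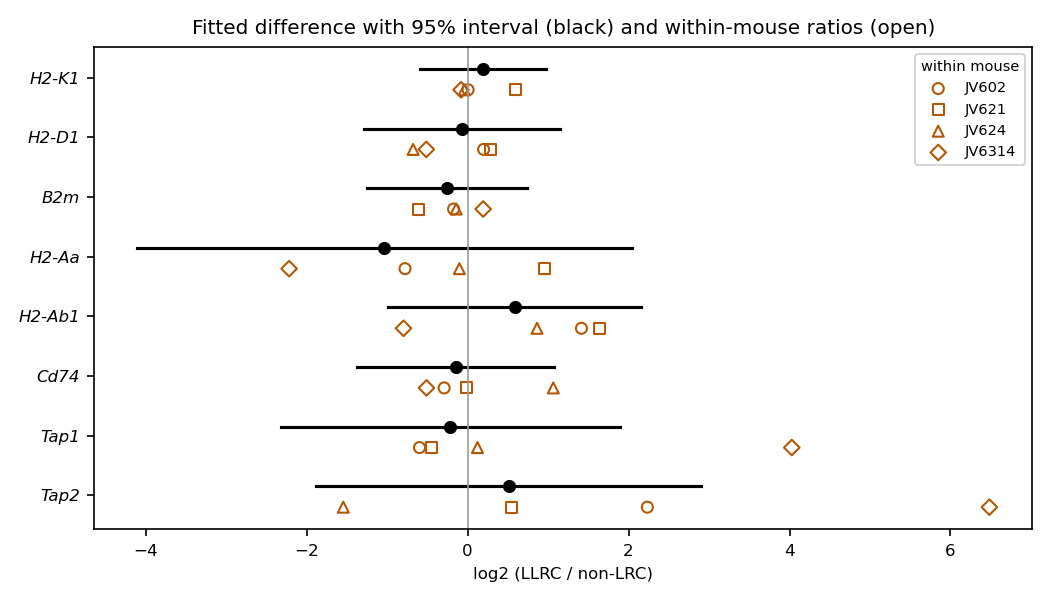
Fitted log2 ratio of LLRC to non-LRC (x axis) with its 95% interval in black for the 8 tested genes, and the ratio within each of the 4 mice (prior count 0.5) as open symbols. Every interval crosses 0. The within-mouse ratios are narrowest for H2-K1 and B2m and reach 4.03 for Tap1 and 6.48 for Tap2 in JV6314, whose non-LRC library had 1 and 0 counts.

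The 95% intervals reached from 0.661 to 1.97-fold for H2-K1, from 0.41 to 2.22-fold for H2-D1 and from 0.421 to 1.68-fold for B2m, and those of H2-Aa and the transporter from at most 0.272-fold to at least 3.71-fold. All intervals are from fits with group only, which leave out the pairing by mouse. With the mouse as replicate block the SE was 0.250 for H2-K1, 0.282 for H2-D1 and 0.266 for B2m, beside 0.348, 0.541 and 0.442. That of H2-Ab1 stayed at 0.70 and that of Tap2 rose from 1.06 to 1.42. Several limits moved with single libraries. Without the LLRC library of JV621 the interval of H2-D1 ended at 1.18-fold, and without the non-LRC library of that mouse that of B2m began at 0.653-fold. Without the non-LRC library of JV6314 the intervals were 0.267 to 1.59-fold for Tap1, 0.393 to 2.94-fold for Tap2 and 0.112 to 10.8-fold for H2-Aa, and those of Cd74 and H2-Ab1 began at 0.678-fold and 0.9695-fold. Other omissions moved the upper limits too. Without the non-LRC library of JV624 that of Tap2 was 16.7-fold and that of H2-Aa 2.34-fold, and without that of JV602 that of Tap1 was 6.12-fold. A difference outside an interval would not for that reason have passed the adjusted test.

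Some genes of the wider class I list stood apart, although none passed edgeR's adjusted test. Of 21 class I chain genes listed, 20 were measured and 17 tested, with 0 called, 4 at an unadjusted p below 0.05, beside 5.16% of all genes tested, and a median log2 fold change of -0.23. Mr1, which presents vitamin B metabolites to MAIT cells, was at 141, 164, 175 and 155 CPM in LLRC of JV602, JV621, JV624 and JV6314 and at 95.4, 62.9, 82.2 and 80.3 CPM in non-LRC. Every LLRC library lay above every non-LRC library, as for 2.15% of all genes tested, and the log2 fold change was 0.98 ± 0.24 (SE), with an unadjusted p of 0.00244 and an adjusted p of 0.301 by edgeR's quasi-likelihood test. DESeq2's Wald test called Mr1 at an adjusted p of 0.000297, and the other 24 fits did not, with adjusted p up to 0.9999 and log2 fold changes from 0.88 to 1.12.

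Another 3 genes of the list lay lower in every LLRC library. H2-Q10, which encodes a class I molecule that hepatocytes secrete, was at 52.8, 56.7, 49.3 and 37.5 CPM in LLRC and at 65.0, 64.1, 238 and 116 CPM in non-LRC of the same mice in that order. Its log2 fold change was -1.30 ± 0.45 (SE), and the non-LRC libraries of JV624 and JV6314 in which it was highest were also those with the highest summed hepatocyte markers, 7790.5 and 6825 CPM beside 2332 to 3612 CPM in the other 6. H2-T24 had a log2 fold change of -1.50 and Cd1d2, a lipid-presenting relative, one of -0.90, both with every mouse lower in LLRC. H2-T24 was at 23.1 CPM in the non-LRC library of JV6314, the one with acinar transcripts, and at 6.63 to 7.52 CPM in the other non-LRC libraries, beside 2.62 to 6.15 CPM in LLRC. Without that library H2-T24 was at -0.84 and Cd1d2 at -0.63, and without the non-LRC library of JV624 H2-Q10 was at -0.74. Of all genes tested, 5.53% were lower in LLRC in 4 of 4 mice and 1.91% had all 4 LLRC libraries below the non-LRC libraries. The adjusted p was 0.749 for H2-Q10, 0.878 for H2-T24 and 0.96 for Cd1d2, and the endothelial markers, which were also lower in LLRC, moved in the same direction. The part of hepatocyte or endothelial transcripts in these values was not tested. The remaining ends of the list were H2-Q2 at 0.56 and H2-Q4 at 0.30, whose groups overlapped.

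No gene of peptide supply and loading passed the test. All 13 listed genes were tested, 7 had a positive and 6 a negative log2 fold change, the median was 0.05 and 0 had an unadjusted p below 0.05. Tapbp, which encodes tapasin, was at 158 to 215 CPM in LLRC and 171 to 238 CPM in non-LRC, and had the smallest SE of the list, 0.23 around a log2 fold change of -0.11. The highest values were Erap1, a peptide-trimming protease, at 0.74, Tap2 at 0.51 and Canx, a chaperone, at 0.34, and the lowest were Psmb10 at -0.43, Psmb9 at -0.24 and Tap1 at -0.22. Erap1 was higher in LLRC in 4 of 4 mice, as were 7.74% of all genes tested, and was at 1.26 without the non-LRC library of JV602 and at 0.41 without that of JV6314.

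The immunoproteasome subunits were read beside the standard subunits that they replace, per kilobase of merged exon, so the ratios depend on the length used. Psmb8 reached 0.794 ± 0.271 of Psmb5 in LLRC and 0.591 ± 0.175 in non-LRC, Psmb10 reached 2.09 ± 0.279 and 2.38 ± 0.61 of Psmb7, and Psmb9 only 0.0434 ± 0.0142 and 0.0590 ± 0.0294 of Psmb6 (SD, n = 4). The groups overlapped in each ratio. Psmb9 was thus far below Psmb6 in all 8 libraries, from 0.0295 to 0.0905 of its level. The standard subunits Psmb5, Psmb6 and Psmb7 had log2 fold changes of -0.47, 0.01 and -0.31.

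The class II list was measured for 16 of 18 genes, of which 3 had 0 counts in all libraries and 8 were tested. Of these 0 were called, 1 had a positive and 7 a negative log2 fold change, and the median was -0.28. The highest were H2-Ab1 at 0.58, Cd74 at -0.15 and Ifi30, a thiol reductase of the lysosome, at -0.19. The lowest were H2-Aa at -1.03, Lgmn, an asparaginyl protease, at -0.70, and H2-DMb2 at -0.62. Lgmn and H2-DMb2 were lower in LLRC in 4 of 4 mice, as were 5.53% of all genes tested. Loading genes were also unequal: H2-DMb1, a chain of the peptide editor H2-DM, was at 6.47 to 25.3 CPM in all libraries, whereas its partner H2-DMa was at 0 to 1.88 CPM and Ctss, the protease that trims Cd74 in professional presenting cells, was at 0 in 6 of 8 libraries.

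No regulator passed the test either. Of 18 listed, 14 were tested, 0 were called, and 5 had a positive and 9 a negative log2 fold change, with a median of -0.08. Irf2, an interferon regulatory factor, was at 11.5, 8.04, 8.53 and 11.7 CPM in LLRC and at 17.5, 48.9, 27.3 and 14.996 CPM in non-LRC of JV602, JV621, JV624 and JV6314. It was lower in every LLRC library, with a log2 fold change of -1.45, or -0.99 without the non-LRC library of JV621, and an adjusted p of 0.59 by edgeR. Of all genes tested, 1.91% were lower in every LLRC library. The endothelial markers were also lower in LLRC and had their highest sum, 1939 CPM, in the non-LRC library of JV621, where Irf2 was highest, and their part in this value was not tested. Irf1 was at -0.13 with an SE of 0.34, and Nlrc5 at -0.35 with an SE of 1.32, its within-mouse log2 ratios running from -3.96 to 3.93. Rfx5 and Jak1 were both at -0.71, and Rfxap at 1.46, Ifngr2 at 0.96 and Jak2 at 0.79, all with overlapping groups. Jak1 was higher in LLRC in 0 of 4 mice, and 5.53% of all genes tested were lower in LLRC in 4 of 4. Over the other fits Rfxap ran from 0.62 to 2.62, Ifngr2, with 0 counts in the non-LRC library of JV6314, from 0.42 to 2.09, and Jak2 from 0.34 to 1.38. Rfx5 ran from -1.22 to -0.40, Jak1 from -0.92 to -0.23 and Nlrc5 from -2.29 to 1.39. The costimulators Cd80 and Pdcd1lg2 were at 0 in all libraries, and of 6 listed only Cd274, which encodes PD-L1, was tested. Cd274 was at -1.55 with an SE of 1.41, ran from -3.79 to -1.03 over the other fits, and was higher in LLRC in 0 of 4 mice.

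**Figure D4:**
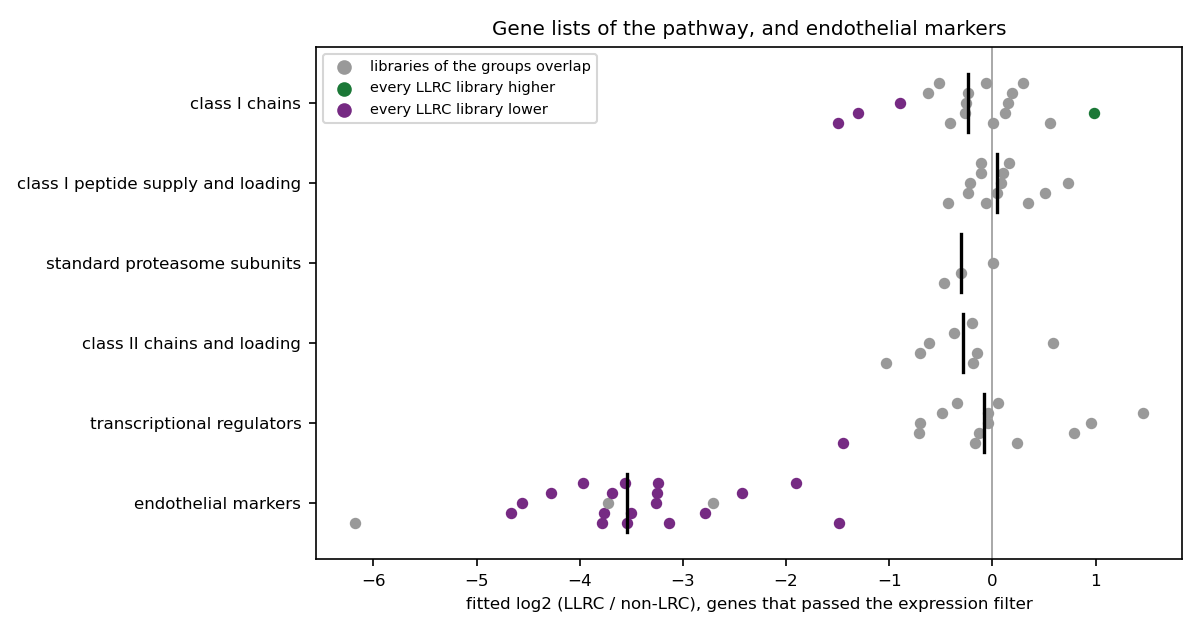
Fitted log2 ratio of LLRC to non-LRC (x axis) for the tested genes of the pathway lists, with endothelial markers for comparison. Each point is a gene, vertical offsets only separate points, black bars are list medians and colour marks genes whose 4 LLRC libraries all lie above (green) or below (purple) the 4 non-LRC libraries. The medians of the 5 pathway lists drawn lie between -0.31 and 0.05, Mr1 is the 1 green point, and the endothelial median is -3.55.

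Markers of the professional presenting cells are set beside the class II values, since those cells could also give class II reads. Leukocytes were depleted with CD45 beads and the sort took CD45- cells, both of which would remove them. Ptprc was read at 5 to 59 counts in LLRC and 0 to 7 in non-LRC. The class II chains summed to 7.08, 14.9, 2.94 and 7.88 CPM in LLRC of JV602, JV621, JV624 and JV6314 and to 5.64, 8.35, 2.37 and 25.1 CPM in non-LRC. The 12 macrophage markers summed to 10.1 to 30.7 CPM in LLRC and 21.3 to 49.7 CPM in non-LRC, with Csf1r giving most of the sum in LLRC. The highest sum, in the non-LRC library of JV624, was in the library with the lowest class II sum, and the next highest, 31.4 CPM, was in the non-LRC library of JV6314, with the highest class II sum. Adgre1 and Clec4f of this list were at 0 in all 4 LLRC libraries and in the non-LRC libraries of JV602 and JV621, and at 6.16 and 1.89 CPM in that of JV624 and 1.58 and 1.97 CPM in that of JV6314. Of the other markers, Cd5l had 60 and 23 counts, C1qb 10 and 28 and C1qa 4 and 8 in the non-LRC libraries of JV624 and JV6314. Timd4 had 22 counts in the non-LRC library of JV621, and Cd68, Lyz2 and C1qb had 10, 5 and 4 counts in that of JV602. In LLRC 6 of the 12 were at 0 in every library. The part of such cells in the class II values was not tested.

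Of the 10 dendritic cell markers, Itgax, Batf3 and Ccr7 were at 0 in all libraries. Zbtb46 was at 3.13 to 27.4 CPM over the 8 libraries, Cd209a had 37 counts in the non-LRC library of JV621, Clec9a had 25 in that of JV602, and Xcr1 had 19 and 23 in LLRC of JV621 and JV624. The list summed to 5.44 to 10.9 CPM in LLRC and 6.39 to 33.8 CPM in non-LRC. Of the 8 B cell markers Cd79a was at 0 throughout and Blnk, at 35.7 to 121 CPM, made up nearly all of the sum, which was 81.8 to 122 CPM in LLRC and 35.7 to 85.8 CPM in non-LRC. The 9 T and NK cell markers summed to at most 1.38 CPM. The stellate cell and fibroblast markers summed to 277 to 909 CPM in LLRC and 704 to 2929 CPM in non-LRC. The 16 cholangiocyte markers were all tested, with 13 positive and 3 negative log2 fold changes and a median of 0.24, and the 14 hepatocyte markers had a median of -1.57.

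**Figure D5:**
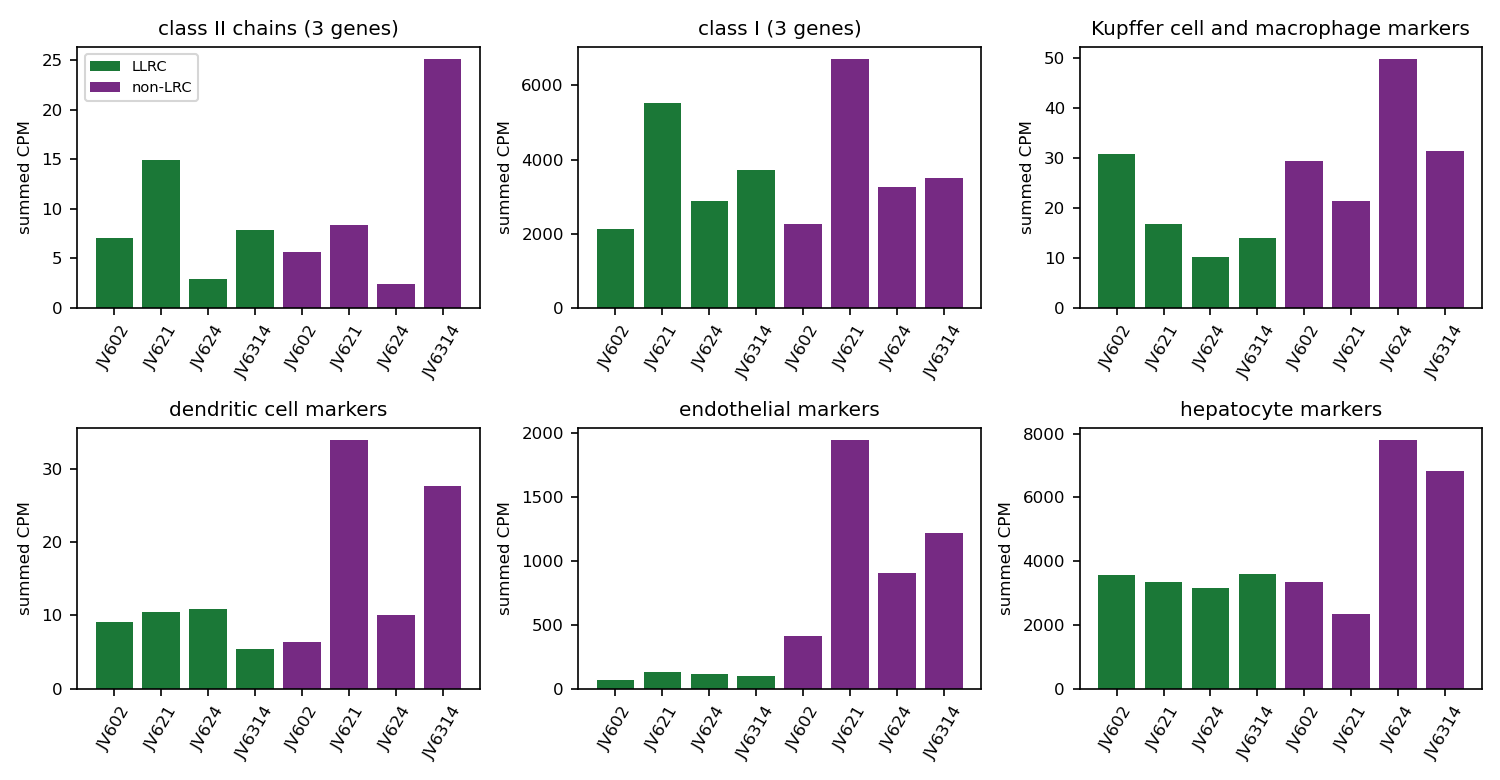
Summed CPM (y axes, linear from 0, a separate scale for each panel) of the class II chains, of H2-K1, H2-D1 and B2m, and of 4 marker lists in each LLRC (green) and non-LRC (purple) library. The class II sum is highest at 25.1 CPM in the non-LRC library of JV6314, beside a macrophage sum of 31.4 CPM. The macrophage sum is highest at 49.7 CPM in the non-LRC library of JV624, where the class II sum is 2.37 CPM.

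Over the 8 libraries, which come from 4 mice and are not independent, Pearson's r of log2 CPM was 0.76 between H2-K1 and H2-D1, 0.72 between H2-K1 and B2m and 0.78 between H2-D1 and B2m. Over the 6 libraries without mouse JV621 these values were -0.04, 0.65 and 0.42, so the relation of H2-D1 to H2-K1 rested on that mouse. Over all 8 libraries r was 0.58 between H2-Aa and H2-Ab1 and 0.71 between H2-Aa and Cd74, and 0.86 between Tap1 and Tap2, a value that fell to -0.24 over the 7 libraries without the non-LRC library of JV6314. Between Tap1 and H2-K1, whose peptides it supplies, r was -0.05. The genes outside the set most like the mean class I profile were Robo2, Farsb, Gm12216, Gm14322 and Fam210a, with r from 0.90 to 0.93, and those most like the mean class II profile were Gm5853, H2-T22, Ppm1e, Mad2l1bp and Ifit2, with r from 0.91 to 0.96. H2-T22 is a nonclassical class I gene and Ifit2 is interferon-induced.

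In GRCm38 with the GENCODE M21 annotation, 7 of the members lie on chromosome 17, in and beside the MHC: H2-K1 at 33996017 to 34000347, Tap1 at 34187553 to 34197225, Tap2 at 34203527 to 34216321, H2-Ab1 at 34257689 to 34269419, H2-Aa at 34282744 to 34287823, H2-Eb1 at 34305867 to 34316674 and H2-D1 at 35262730 to 35267499. Tap1, Tap2 and the class II chains thus lie between the 2 classical heavy chains that were read at far higher levels. B2m lies apart on chromosome 2 at 122147686 to 122153083.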

How the data were processed

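RNA-seq counts of 8 libraries, 4 LLRC and 4 non-LRC, were analysed. The authors deposited raw counts per gene, made with HTSeq without strand on GRCm38.p4 exons. Reads were mapped as a service, and the aligner is not given in the sources used here. The authors' deposited comparison table (log2 fold changes, abundances, p-values) was not used. The members and gene lists were chosen with earlier results of these data known.

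Symbols were matched for 46005 of 46603 identifiers. Of these identifiers, 13605 passed filterByExpr and were tested with edgeR 4.0.16 (R 4.3.3), using TMM, the quasi-likelihood test with group only, and Benjamini-Hochberg adjustment at 0.05. DESeq2 1.42.0 and limma 3.58.1 served as alternatives. The prior count of log2 CPM was 0.5. Both libraries of a mouse come from 1 animal, which pairs them: across genes tested, the correlation of both libraries' deviations from their group mean was 0.10 in JV602, 0.06 in JV621, 0.01 in JV624 and 0.15 in JV6314. Exon lengths and coordinates come from GENCODE M21, which is another annotation release than that counted.

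Named were all members, the 3 highest and 3 lowest fold changes of each pathway list, preset genes (Nlrc5, Rfx5, Irf1, Psmb8, Psmb9, Tapbp, H2-DMa, Ctss and the H2-Ea row, while 1 more is not reported here), the 5 genes most like each class profile, and Epcam and Ptprc. Other marker, costimulator and proteasome genes were named after their values were seen. Replicates are separate mice. Counting error is part of the edgeR and DESeq2 models, and for single values it is covered only through the 3-count floor.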

Additional observations from a re-analysis of the deposited data

Results flagged for a closer look

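H2-D1 stood out in the LLRC library of JV621 at 750.2 CPM, where the next highest LLRC library had 241 CPM and the lowest 193 CPM, so that the gap took up 0.915 of the range of the 4 libraries. The same library held the Xist counts, and the non-LRC library of the same mouse was also the highest of its group, at 616 CPM. Cd74 stood out in the LLRC library of JV6314 at 52.5 CPM, where the next highest had 28.3 CPM and the gap took up 0.843 of the range, and the non-LRC library of this mouse was again the highest of its group. Both gaps exceed Dixon's 95% critical value for 4 samples. Of 20 groups of 4 examined, 2 stood out, and chance alone marks about 1 in 20.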

How the results depend on the processing

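In 24 other fits, 0 members were called in each. H2-Ab1 kept its sign in 24 of 24, between 0.10 and 1.45, whereas H2-D1 changed sign in 7 of 23, Tap1 in 6, Cd74 in 4, H2-Aa in 3, B2m and H2-K1 in 2 and Tap2 in 1, and the lowest adjusted p of any of these 8 was 0.788. With the mouse as replicate block the median log2 fold change of the members was 0.09, with 0 genes and 0 members called, and that pairing changed no call. The median was 0.35 with limma voom, and -0.35 to 0.27 with libraries or mice left out, the latter without the non-LRC library of JV621. Over all genes, 221 were called by DESeq2's Wald test, 171 by the likelihood ratio test, 159 by the exact test, 73 with the newer quasi-likelihood dispersion, 11 with no filter, and 0 to 6 with libraries or mice left out, 6 of them without the non-LRC library of JV602. The number of members whose groups did not overlap was 0 to 1 with mice left out, and the 1 was H2-Ab1 without JV6314. A prior count of 2 changed no side of the threshold in the single-gene permutation tests. The causes of these shifts were not tested. Libraries with 3 counts or fewer occurred for Ciita, H2-Eb1, H2-Aa, Tap1 and Tap2, where depth gives little precision. The correlations, intervals and pathway genes with libraries left out were chosen after seeing the data.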
